A study of Mus musculus with 12 samples.

Results

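The ligands of the tumor necrosis factor (TNF) superfamily were examined in mouse bone marrow-derived macrophages that carried 1 or no copy of the histone deacetylase gene Hdac3. The 10 ligand genes were taken by symbol (Tnf, Lta, Ltb, Tnfsf4, Tnfsf8, Tnfsf9, Tnfsf10, Tnfsf13b, Tnfsf14 and Tnfsf15), and each was read by 1 probe set of the array. They stand among 19945 genes measured. RNA came from C57BL/6 marrow cells grown in L929-conditioned medium, which supplies the growth factor CSF1, and used on day 7. The 4 groups of 3 arrays were Hdac3 +/- cells, either left untreated or stimulated with 100 ng/ml of the bacterial endotoxin lipopolysaccharide (LPS) for 4 h, and Hdac3 -/- cells under the same 2 conditions. The submitters label the Hdac3 +/- cells wild type, although they lack 1 copy of the gene, so no group with both copies was compared. How Hdac3 was deleted and how many animals were used is not stated in the labels.

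TNF superfamily ligands are mostly membrane-anchored proteins that act as trimers, on neighboring cells or after being cut from the surface. Their receptors carry cysteine-rich repeats outside the cell and recruit either TRAF adaptors, which lead to NF-kB, or death domain adaptors, which lead to caspase-8. In macrophages Tnf is a classical early product of LPS stimulation through TLR4, and Tnfsf10 (TRAIL) is known as an interferon-induced ligand.

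All values are log2 signals per probe set. Changes are log2 differences ± 1 standard error (SE) of a limma model over all 12 arrays, with n = 3 arrays per group, and a gene was called changed at a Benjamini-Hochberg adjusted p under 0.05 over 19945 genes. Brightness differs between probe sets, so ligand levels were compared between arrays and not between genes. Nothing in the labels says that arrays of 1 group came from separate animals, and the p-values therefore measure the spread between these arrays only. The Hdac3 signal was 9.42, 9.10 and 8.98 in untreated Hdac3 +/- cells and 8.90, 9.02 and 8.66 after LPS, against 7.39, 7.52 and 7.39 and then 6.91, 7.25 and 7.18 in the Hdac3 -/- cells. The 2 genotypes did not overlap, with a difference of -1.74 ± 0.153 untreated (adjusted p = 1.66e-05) and -1.75 ± 0.153 after LPS (adjusted p = 5.9e-06). Of 10 macrophage markers 9 had a usable row, and their mean log2 signal was between 11.05 and 11.51 on every array, although Mertk fell after LPS (by 2.01 and 2.61) and Fcgr1 was lower in Hdac3 -/- cells (by 1.45 untreated and 2.41 after LPS). The marker means per array were 4.02 to 4.62 for T cells, 3.78 to 4.37 for B cells, 3.27 to 3.89 for NK cells, 4.34 to 4.84 for dendritic cells, 3.01 to 3.44 for mast cells and basophils, 4.33 to 5.57 for neutrophils and 5.01 to 5.69 for stromal cells. As a rough guide across different probe sets, the median of all probe sets was 5.19 to 5.37. S100a8, a neutrophil marker that macrophages can also express, ranged from 4.65 to 10.19 and was not called in any comparison. Signals of Xist and of Y-linked genes marked 2 of 12 arrays as male, replicate 1 of the untreated and of the LPS-treated Hdac3 +/- cells, and the other 10 as female.

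The starts of the 4 ligand genes with the largest LPS change in Hdac3 +/- cells are shown here, because LPS changed 2 of them far less in Hdac3 -/- cells (Tnfsf10 and Tnfsf8) and the other 2 about as much (Tnfsf15 and Tnf). Each is the 250 bases before the RefSeq start on assembly GRCm38.p6, read 5′ to 3′ on the gene's strand. Capitals mark matches to a loose NF-kB pattern (GGG, 5 bases of any kind, CC), searched on both strands together with a loose interferon-response pattern (GAAA, 2 bases of any kind, GAAA) and an AP-1 pattern (TGANTCA).
Tnfsf10, chr3:27316827-27317076, plus strand: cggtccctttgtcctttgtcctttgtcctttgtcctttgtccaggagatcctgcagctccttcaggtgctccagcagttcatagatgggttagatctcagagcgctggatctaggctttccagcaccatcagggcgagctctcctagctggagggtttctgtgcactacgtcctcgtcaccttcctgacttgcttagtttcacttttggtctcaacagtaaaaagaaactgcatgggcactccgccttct
Tnfsf8, chr4:63861285-63861534, minus strand: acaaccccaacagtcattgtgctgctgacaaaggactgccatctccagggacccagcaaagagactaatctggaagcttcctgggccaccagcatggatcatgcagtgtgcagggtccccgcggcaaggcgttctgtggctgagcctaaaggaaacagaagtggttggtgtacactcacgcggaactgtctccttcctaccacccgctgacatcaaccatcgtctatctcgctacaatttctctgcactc
Tnfsf15, chr4:63745060-63745309, minus strand: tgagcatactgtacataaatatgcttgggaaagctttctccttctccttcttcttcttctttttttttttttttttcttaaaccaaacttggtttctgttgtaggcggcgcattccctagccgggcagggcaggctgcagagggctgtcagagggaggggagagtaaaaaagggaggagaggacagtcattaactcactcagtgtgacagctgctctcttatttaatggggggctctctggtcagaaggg
Tnf, chr17:35202008-35202257, minus strand: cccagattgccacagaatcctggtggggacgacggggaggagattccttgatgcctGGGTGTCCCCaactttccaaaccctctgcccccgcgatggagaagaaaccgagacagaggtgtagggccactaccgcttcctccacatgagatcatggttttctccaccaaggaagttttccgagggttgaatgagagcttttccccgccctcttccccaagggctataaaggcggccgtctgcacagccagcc
The Tnf window held 1 match, GGGTGTCCCC, at 194 to 185 bases before the start, and the windows of Tnfsf10, Tnfsf8 and Tnfsf15 held none of the 3 patterns. Over 32851 RefSeq windows of the same length, 45.8% held the first pattern, 3.0% the second and 6.7% the third. With overlaps counted, the first pattern also matched at 2 positions in the window of Lta, which rose after LPS, and at 4 positions each in the windows of Ltb and Tnfsf14, which were not called. The third pattern matched in the Tnfsf14 window, and both the second and the third in 1 window of Tnfsf13b, which was not called after LPS. These matches describe the letters of the windows, and factor binding was not measured. The promoter table held 8 of the 10 ligand genes.

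After 4 h of LPS 7 of the 10 ligand genes rose in Hdac3 +/- cells, and 9.59% of all genes rose and 15.5% fell in that comparison. The median change of the 10 ligands was 2.04 on the log2 scale, against 0.08 for all genes. In Hdac3 -/- cells 4 of the 10 rose (Tnf, Lta, Tnfsf10 and Tnfsf15), beside 3.69% of all genes that rose and 5.18% that fell, with a median of 1.04 against 0.02. No ligand gene passed the test as lower after LPS in either genotype. Between genotypes 1 of 10 was lower in untreated Hdac3 -/- cells (Tnfsf10), where 1.22% of all genes were higher and 1.44% lower. After LPS 2 of 10 were lower in Hdac3 -/- cells (Tnfsf10 and Tnfsf8), where 9.69% of all genes were higher and 5.99% lower. The LPS response itself differed between genotypes (the interaction of genotype and LPS) for the same 2 genes, while 0.306% of all genes had a larger and 0.777% a smaller log2 change in Hdac3 -/- cells.

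**Figure D1:**
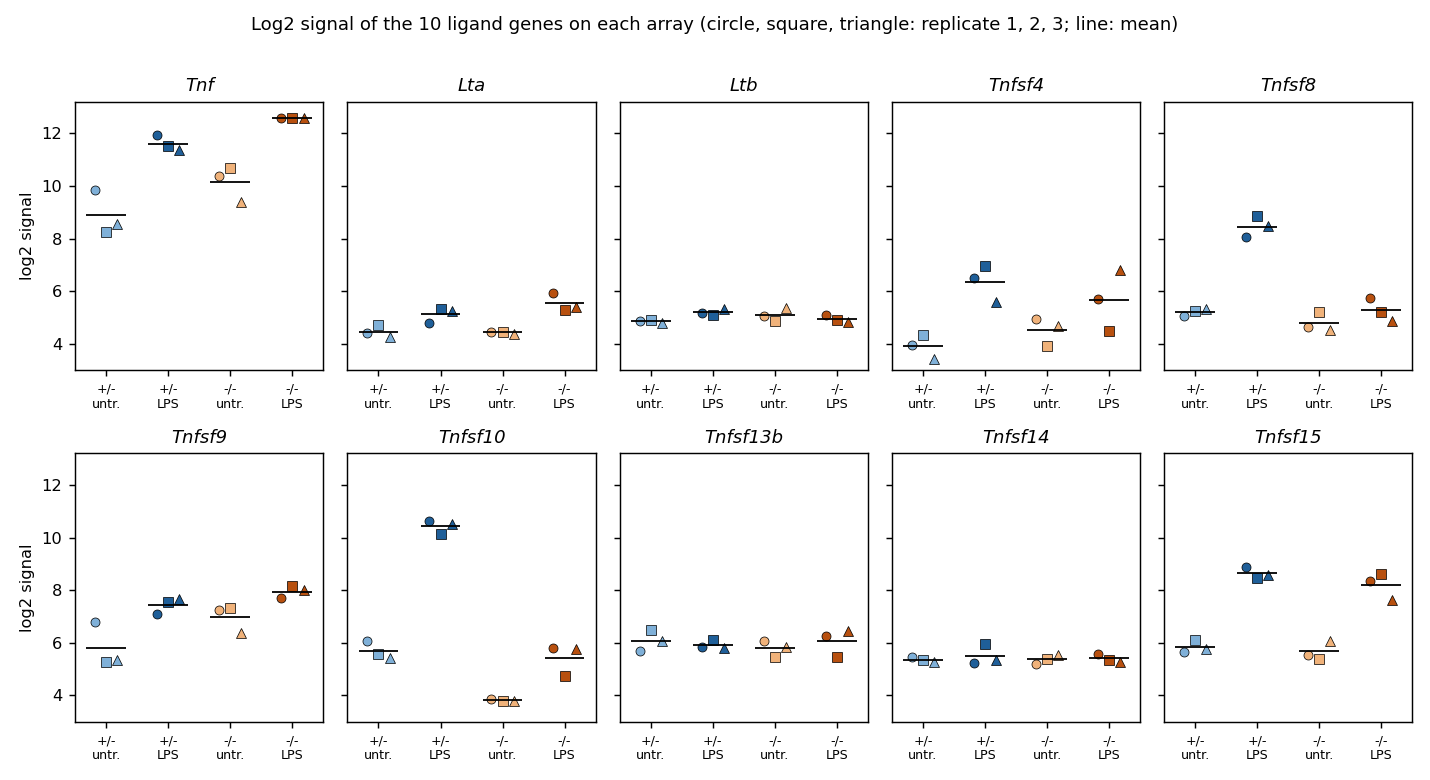
Log2 signal of each of the 10 ligand genes on each of the 12 arrays. Columns are the 4 groups (Hdac3 +/- untreated and LPS, Hdac3 -/- untreated and LPS), circles, squares and triangles are replicates 1, 2 and 3, and the line is the group mean. Tnfsf10 and Tnfsf8 were high in LPS-treated Hdac3 +/- cells alone (10.14 to 10.63 and 8.05 to 8.85), whereas Tnf and Tnfsf15 were high after LPS in both genotypes.

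Tnf, the founding cytokine of the family, rose in both genotypes. Its log2 signal was 9.84, 8.26 and 8.55 in untreated Hdac3 +/- cells and 11.94, 11.51 and 11.37 after LPS. The Hdac3 -/- arrays gave 10.37, 10.68 and 9.41 untreated and 12.58, 12.59 and 12.59 after LPS. Every LPS array lay above every untreated array, and the LPS-treated Hdac3 -/- arrays were the highest of all. The rise was 2.72 ± 0.364 in Hdac3 +/- cells (6.59-fold, adjusted p = 0.000109) and 2.43 ± 0.364 in Hdac3 -/- cells (5.40-fold, adjusted p = 0.000691). The difference of the 2 rises was -0.29, with a 95% confidence interval (CI) of -1.40 to 0.82 (adjusted p = 0.87).

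Tnf was not called between genotypes, although the mean was higher in Hdac3 -/- cells under both conditions. The difference was 1.27 (95% CI 0.48 to 2.05, adjusted p = 0.0963) in untreated cells, where the arrays overlapped through the Hdac3 +/- replicate at 9.84. After LPS it was 0.98 (95% CI 0.20 to 1.76, adjusted p = 0.0888), and all 3 Hdac3 -/- arrays were higher than all 3 Hdac3 +/- arrays. The Hdac3 +/- array at 9.84 was 1 of the 2 male arrays. Without it the untreated difference was 1.75 (adjusted p = 0.00769) and that after LPS, of unchanged size, had an adjusted p of 0.0244. Likewise, without the Hdac3 -/- replicate at 9.41 the untreated difference was 1.64 (adjusted p = 0.03). With sex as a covariate the untreated difference was 1.59 (adjusted p = 0.0104) and that after LPS 1.30 (adjusted p = 0.00853). Both male arrays were replicate 1 of the Hdac3 +/- cells and no Hdac3 -/- array was male. Sex therefore cannot be told apart from that replicate, and this fit is not separate from leaving the array at 9.84 out. Most alternatives left Tnf uncalled, however. The untreated difference stayed uncalled in 20 of 24 (values from 0.95 to 1.75, adjusted p up to 0.339). That after LPS stayed uncalled in 19 of 24 (values from 0.81 to 1.30, adjusted p up to 0.242). The 3 LPS-treated Hdac3 -/- arrays spanned 0.0094 log2 units, whereas the brightest probe set of those arrays read 13.83, 13.87 and 14.05. Whether the Tnf probe set was near its upper limit there was not tested.

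Lta, which encodes lymphotoxin alpha, a secreted ligand of the TNF receptors, lies next to Tnf and rose in both genotypes by less. Its signal was 4.39, 4.70 and 4.26 in untreated Hdac3 +/- cells and 4.80, 5.34 and 5.24 after LPS. Hdac3 -/- cells gave 4.46, 4.44 and 4.38 untreated and 5.93, 5.29 and 5.41 after LPS. No untreated array reached an LPS-treated array of its genotype. The change was 0.68 ± 0.189 in Hdac3 +/- cells (1.60-fold, adjusted p = 0.0178) and 1.12 ± 0.189 in Hdac3 -/- cells (2.17-fold, adjusted p = 0.00182). The first of these calls was lost without untreated replicate 1 or 3 or LPS replicate 2 or 3 of the Hdac3 +/- cells, at an adjusted p of 0.0531 to 0.0764. The genotypes differed by -0.02 untreated and by 0.42 after LPS (95% CI 0.01 to 0.83, adjusted p = 0.16), and the interaction was 0.44 (95% CI -0.13 to 1.01, adjusted p = 0.582).

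Ltb, the membrane partner of lymphotoxin alpha, was not called in any of the 5 comparisons. Signals were 4.87, 4.90 and 4.80 in untreated Hdac3 +/- cells and 5.18, 5.09 and 5.31 after LPS, a difference of 0.34 ± 0.140 (adjusted p = 0.0949) with all LPS arrays higher. For Hdac3 -/- cells the values were 5.07, 4.88 and 5.34 untreated and 5.09, 4.90 and 4.82 after LPS, a difference of -0.16 ± 0.140 (adjusted p = 0.625) with overlapping arrays. The interaction was -0.50 (95% CI -0.93 to -0.07, adjusted p = 0.327). The 3 lymphotoxin and Tnf genes lie side by side on chromosome 17 in the order Ltb, Tnf, Lta.

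Tnfsf10, which encodes the death receptor ligand TRAIL, had the largest LPS change of the 10 genes in Hdac3 +/- cells. Its log2 signal was 6.07, 5.56 and 5.42 in untreated Hdac3 +/- cells and 10.63, 10.14 and 10.51 after LPS. The Hdac3 -/- arrays gave 3.86, 3.80 and 3.79 untreated and 5.79, 4.74 and 5.76 after LPS. Arrays of the 2 genotypes did not overlap under either condition, and the LPS-treated Hdac3 -/- arrays fell in and just below the range of the untreated Hdac3 +/- arrays. LPS raised the gene by 4.74 ± 0.254 in Hdac3 +/- cells (26.8-fold, adjusted p = 3.75e-08) and by 1.62 ± 0.254 in Hdac3 -/- cells (at least 3.07-fold, adjusted p = 0.00103). The untreated Hdac3 -/- signals lay near the lower quartile of all probe sets on those arrays (3.72 to 3.80), and no detection call was used, so every fold measured from them is best read as a lower bound.

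The genotype difference of Tnfsf10 was present before LPS and larger after it. The Hdac3 -/- cells were at least 3.65-fold lower untreated (log2 difference -1.87 ± 0.254, adjusted p = 0.000884) and 31.8-fold lower after LPS (-4.99 ± 0.254, adjusted p = 9.77e-08). The 2 LPS changes differed by -3.12 ± 0.360 (95% CI -3.90 to -2.35, adjusted p = 0.000777), a size that rests on the same low baseline, whereas the difference after LPS does not. All 5 calls were kept in every alternative that could be fitted, each array left out in turn included. The 4 group means stood in the order Hdac3 -/- untreated (3.81), Hdac3 -/- LPS (5.43), Hdac3 +/- untreated (5.68) and Hdac3 +/- LPS (10.43), of which only the second and the third overlapped.

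Tnfsf8, which encodes the CD30 ligand, a costimulatory molecule, rose in Hdac3 +/- cells and was not called in Hdac3 -/- cells. Signals were 5.05, 5.26 and 5.33 in untreated Hdac3 +/- cells and 8.05, 8.85 and 8.46 after LPS. The Hdac3 -/- cells read 4.62, 5.22 and 4.52 untreated and 5.73, 5.20 and 4.88 after LPS. The 3 LPS-treated Hdac3 +/- arrays stood above the other 9 arrays, which overlapped from group to group. The rise was 3.24 ± 0.248 in Hdac3 +/- cells (9.47-fold, adjusted p = 8.12e-07), against a difference of 0.48 in Hdac3 -/- cells (95% CI -0.05 to 1.02, adjusted p = 0.314).

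Untreated cells of the 2 genotypes differed in Tnfsf8 by -0.43 (95% CI -0.96 to 0.11, adjusted p = 0.556). After LPS the Hdac3 -/- cells were 9.10-fold lower (-3.19 ± 0.248, adjusted p = 2.43e-06). The interaction was -2.76 ± 0.351 (95% CI -3.52 to -2.01, adjusted p = 0.00138). These calls were kept in every alternative that could be fitted. T cells also make this ligand, and of 7 T cell markers with a usable row Cd3e (0.53) and Cd247 (0.68) rose in Hdac3 +/- cells and none was called in Hdac3 -/- cells. Single markers of other cell types rose by more in that comparison, namely Cd79a of B cells (0.75), Klrk1 of NK cells (0.80) and Dcn of stromal cells (0.72). Cd209a of dendritic cells rose by less (0.45). The mean log2 signal of the 7 T cell markers was 4.16 untreated and 4.48 after LPS in Hdac3 +/- cells, and 4.23 and 4.24 in Hdac3 -/- cells. Means of the other non-macrophage lists also rose in Hdac3 +/- cells, from 4.00 to 4.28 for B cells and 3.41 to 3.72 for NK cells. They went from 4.52 to 4.76 for dendritic cells, 5.18 to 5.51 for stromal cells, 4.74 to 5.02 for neutrophils and 3.15 to 3.32 for mast cells and basophils. Among neutrophil markers S100a8 changed by 2.24, against a list median of 0.04. In Hdac3 -/- cells the B cell mean went from 3.94 to 4.00 and the NK cell mean from 3.42 to 3.54. The dendritic cell mean went from 4.42 to 4.49 there and the stromal mean from 5.11 to 5.23. The neutrophil mean went from 4.64 to 5.05 and that of mast cells and basophils from 3.09 to 3.15. The macrophage mean went from 11.47 to 11.34 in Hdac3 +/- and from 11.30 to 11.13 in Hdac3 -/- cells. The part of T cells in the result was not tested. In RNA of whole cultures, more cells of a type and more RNA per cell cannot be told apart. Quartiles of the arrays differed as well. In Hdac3 +/- cells the lower ones read 3.76, 3.84 and 3.70 untreated, then 3.84, 3.99 and 3.95 after LPS. The upper ones read 7.45, 7.37 and 7.50, then 7.32, 7.19 and 7.15. Hdac3 -/- arrays had lower quartiles of 3.72, 3.76 and 3.80, then 3.86, 3.89 and 3.74. Their upper quartiles were 7.46, 7.42 and 7.39, then 7.36, 7.29 and 7.44. Whether such differences moved the marker means was not tested.

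Tnfsf15 (TL1A, the ligand of death receptor 3) lies beside Tnfsf8 and rose in both genotypes. Its signal was 5.66, 6.10 and 5.77 in untreated Hdac3 +/- cells and 8.87, 8.48 and 8.60 after LPS. Hdac3 -/- cells gave 5.55, 5.39 and 6.08 untreated and 8.34, 8.60 and 7.64 after LPS. LPS and untreated arrays were fully apart in both genotypes, and the genotypes overlapped under both conditions. The rise was 2.80 ± 0.239 in Hdac3 +/- cells (6.99-fold, adjusted p = 2.08e-06) and 2.52 ± 0.239 in Hdac3 -/- cells (5.74-fold, adjusted p = 1.32e-05). The 2 rises differed by -0.28 (95% CI -1.01 to 0.44, adjusted p = 0.803), and the genotypes by -0.17 untreated and -0.45 after LPS (95% CI -0.97 to 0.06, adjusted p = 0.23).

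Tnfsf4, which encodes the OX40 ligand, a costimulator of T cells, had the largest SE of the 10 ligands. It read 3.97, 4.32 and 3.43 in untreated Hdac3 +/- cells and 6.51, 6.95 and 5.58 after LPS, which did not overlap. For Hdac3 -/- cells the values were 4.95, 3.93 and 4.67 untreated and 5.71, 4.49 and 6.81 after LPS, which overlapped and spanned 2.32 log2 units after LPS. LPS raised it by 2.44 ± 0.490 in Hdac3 +/- cells (at least 5.42-fold, adjusted p = 0.0024). The untreated Hdac3 +/- signals lay near the lower quartile of all probe sets on those arrays (3.70 to 3.84). That fold is therefore best read as a lower bound, and the size of the interaction as uncertain. In Hdac3 -/- cells the difference was 1.15 (95% CI 0.10 to 2.20, adjusted p = 0.198), while it was 1.74 without LPS replicate 2 (adjusted p = 0.0307) and 0.58 without LPS replicate 3 (adjusted p = 0.527). The interaction was -1.29 (95% CI -2.78 to 0.20, adjusted p = 0.519), and the genotype differences of 0.61 untreated and -0.68 after LPS were not called (adjusted p = 0.716 and 0.397).

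Tnfsf9 (the 4-1BB ligand, also a T cell costimulator) rose in Hdac3 +/- cells. Signals were 6.80, 5.27 and 5.34 in untreated Hdac3 +/- cells and 7.11, 7.57 and 7.65 after LPS. The Hdac3 -/- arrays gave 7.23, 7.31 and 6.39 untreated and 7.69, 8.16 and 8.0 after LPS. LPS arrays were higher than untreated arrays in both genotypes, with the untreated Hdac3 +/- replicate at 6.80, a male array, nearest to the LPS arrays. The change was 1.64 ± 0.352 in Hdac3 +/- cells (3.12-fold, adjusted p = 0.00374) and 0.97 ± 0.352 in Hdac3 -/- cells (1.96-fold, adjusted p = 0.119). The interaction was -0.67 (95% CI -1.74 to 0.40, adjusted p = 0.666). The untreated genotype difference was 1.17 (adjusted p = 0.114), and 1.67 without the replicate at 6.80 (adjusted p = 0.00483). It stayed uncalled in 22 of 24 alternatives (values from 0.91 to 1.67, adjusted p up to 0.389). After LPS the genotypes differed by 0.50 (95% CI -0.25 to 1.26, adjusted p = 0.381), which was not called although all Hdac3 -/- arrays were higher. Without the replicate at 6.80 the LPS difference in Hdac3 -/- cells, of unchanged size, had an adjusted p of 0.0196. That LPS difference stayed uncalled in 22 of 25 alternatives (adjusted p up to 0.387).

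Tnfsf13b and Tnfsf14 were not called in any of the 5 comparisons. Tnfsf13b encodes BAFF, a survival factor of B cells, and Tnfsf14 encodes LIGHT, a ligand of the lymphotoxin beta receptor and of HVEM. Tnfsf13b read 5.70, 6.48 and 6.08 in untreated Hdac3 +/- cells and 5.84, 6.10 and 5.80 after LPS, and 6.06, 5.46 and 5.86 and then 6.26, 5.45 and 6.46 in Hdac3 -/- cells. Tnfsf14 read 5.47, 5.33 and 5.28 in untreated Hdac3 +/- cells and 5.23, 5.95 and 5.33 after LPS, and 5.20, 5.38 and 5.52 and then 5.59, 5.36 and 5.26 in Hdac3 -/- cells. Neighbouring groups overlapped throughout the order of their means for both genes. The LPS differences were -0.17 (95% CI -0.73 to 0.38) and 0.26 (95% CI -0.29 to 0.82) for Tnfsf13b, and 0.14 (95% CI -0.24 to 0.53) and 0.04 (95% CI -0.35 to 0.43) for Tnfsf14, in Hdac3 +/- and Hdac3 -/- cells in that order.

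**Figure D2:**
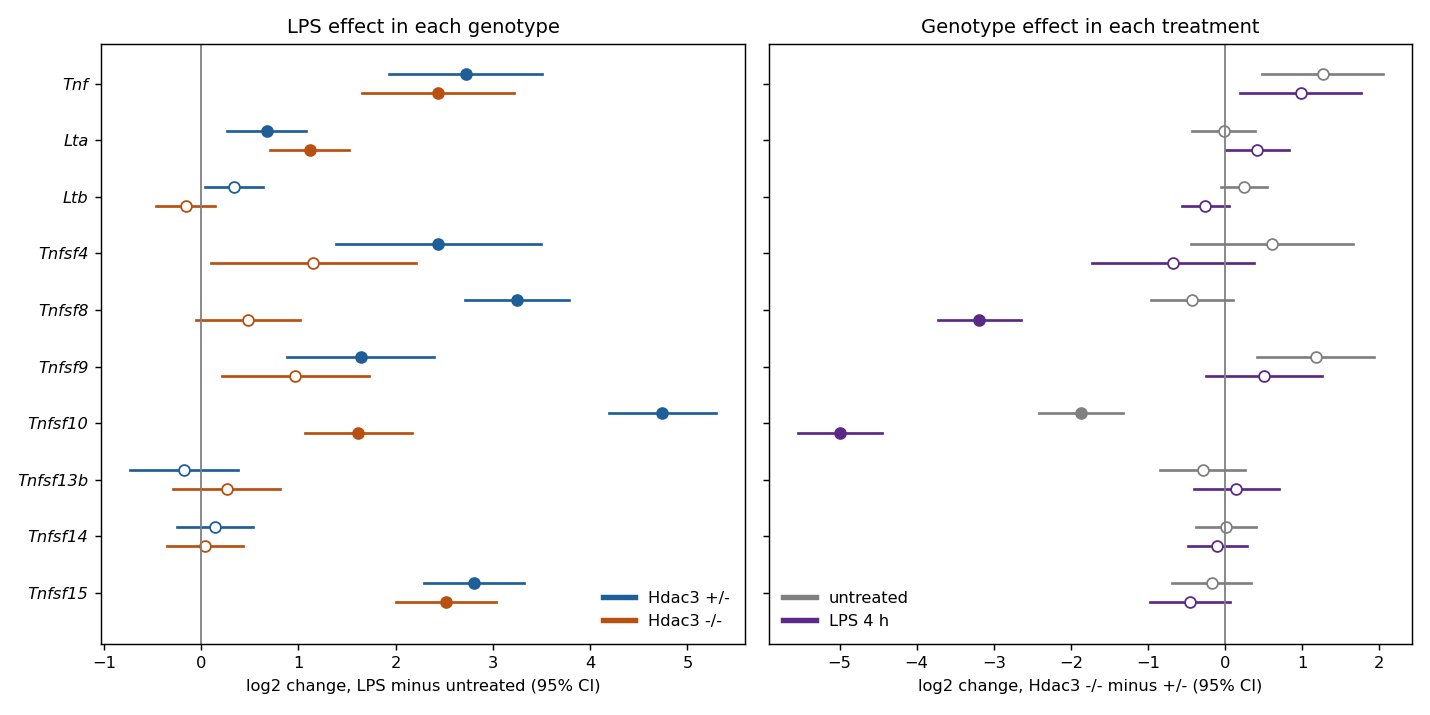
Log2 changes of the 10 ligand genes with 95% confidence intervals of the limma model, LPS minus untreated in each genotype on the left and Hdac3 -/- minus Hdac3 +/- under each condition on the right. Filled points passed an adjusted p of 0.05 and open points did not. On the left the intervals of Tnfsf10 (4.74 and 1.62) and Tnfsf8 (3.24 and 0.48) lie apart, and those of Tnf and Tnfsf15 overlap.

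Of the 8 further ligands of the superfamily 6 had a usable row (Tnfsf11, Tnfsf18, Cd40lg, Cd70, Fasl and Eda), and Tnfsf12 and Tnfsf13 were not analysed here. None of the 6 passed the test after LPS in either genotype, where the smallest p belonged to Tnfsf11 (the RANK ligand) in Hdac3 +/- cells, at 0.36 ± 0.140 (adjusted p = 0.0751), and to Cd40lg in Hdac3 -/- cells, at -0.21 ± 0.160 (adjusted p = 0.561). At an unadjusted p under 0.05 Tnfsf11 alone passed in Hdac3 +/- cells and 0 of 6 in Hdac3 -/- cells. Tnfsf18, which encodes the GITR ligand and neighbors Tnfsf4, was lower in Hdac3 -/- cells after LPS by 0.82 ± 0.257 (adjusted p = 0.0455). Its signals were 3.73, 4.27 and 3.60 in Hdac3 +/- against 3.01, 3.06 and 3.08 in Hdac3 -/- cells. The latter lay below the lower quartile of all probe sets on their arrays (3.74 to 3.89). The former lay around theirs (3.84 to 3.99), so the size of the difference is uncertain. Tnfsf18 passed in only 10 of 23 alternatives and failed, among others, without any single array of the LPS-treated groups (adjusted p up to 0.169). Untreated, the smallest p was that of Fasl, at 0.24 ± 0.131 (adjusted p = 0.52), and for the interaction that of Cd40lg, at -0.52 ± 0.226 (adjusted p = 0.388).

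All 28 genes listed as receptors of the superfamily were measured. In Hdac3 +/- cells 7 rose and 3 fell after LPS, with a median change of 0.17, beside 9.59% and 15.5% of all genes. In Hdac3 -/- cells 2 rose and 1 fell, with a median of 0.13, beside 3.69% and 5.18% of all genes, so the counts of receptors that fell were no larger than over all genes. Cd40, a receptor through which T cells activate macrophages, rose by 3.86 ± 0.208 and 3.00 ± 0.208 in the 2 genotypes (adjusted p = 3.78e-08 and 7.15e-07). Its signals after LPS were 11.10, 10.95 and 11.06 in Hdac3 +/- and 9.84, 10.06 and 9.40 in Hdac3 -/- cells, a genotype difference of -1.27 ± 0.208 (adjusted p = 0.00104) with no overlap. The death receptor gene Fas rose by 2.45 ± 0.362 (adjusted p = 0.000243) and 1.31 ± 0.362 (adjusted p = 0.0371). In Hdac3 -/- cells Fas failed to pass under 8 of 25 alternatives (adjusted p up to 0.116), among them without Hdac3 +/- LPS replicate 3 or any 1 of the LPS-treated Hdac3 -/- arrays. Tnfrsf26, a receptor gene of the mouse, fell by 1.19 in Hdac3 +/- and by 0.84 in Hdac3 -/- cells (adjusted p = 4.97e-05 and 0.0021).

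Between genotypes 3 of 28 receptors were higher in untreated Hdac3 -/- cells (1.22% of all genes), and after LPS 4 were higher and 6 lower (9.69% and 5.99% of all genes). Of these calls 2 of 3 and 5 of 10 were lost in some alternative. Tnfrsf1b, which encodes TNF receptor 2, read 9.90, 10.76 and 10.60 in untreated Hdac3 +/- and 11.92, 11.25 and 12.10 in untreated Hdac3 -/- cells, a difference of 1.34 ± 0.230 (adjusted p = 0.00525) with no overlap. The others were Tnfrsf26 (1.04, adjusted p = 0.00106) and Ltbr, the lymphotoxin beta receptor (0.51, adjusted p = 0.0326). The Ltbr difference failed to pass under 11 of 24 alternatives, among them without any single untreated array or without Hdac3 -/- LPS replicate 3 (adjusted p up to 0.14). The largest differences after LPS were those of Tnfrsf26 (1.40), Tnfrsf11a, which encodes RANK (-1.36), Cd40 (-1.27) and Tnfrsf21, which encodes death receptor 6 (1.27). The Tnfrsf11a call (adjusted p = 0.0145) was lost without replicate 3 of the LPS-treated Hdac3 +/- or Hdac3 -/- cells (adjusted p up to 0.0719).

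Receptors that bind the 10 ligands are given whether or not they passed, and were picked for that binding after their values had been seen. Tnfrsf1a, which encodes TNF receptor 1, read 10.44, 10.38 and 10.00 in untreated Hdac3 +/- cells and 10.90, 11.08 and 11.01 after LPS. Hdac3 -/- cells gave 10.64, 10.51 and 10.56 untreated and 10.52, 10.33 and 10.47 after LPS. It rose by 0.73 ± 0.136 in Hdac3 +/- cells (adjusted p = 0.00147) and was not called in Hdac3 -/- cells, at -0.13 ± 0.136 (adjusted p = 0.704), where its arrays overlapped. Its interaction had the smallest p of the 28 receptors, -0.86 ± 0.192, and was not called (adjusted p = 0.0524). None of the 28 interactions was called, and 8 had an unadjusted p under 0.05, as did 11.4% of all genes. Tnfrsf1b rose by 1.76 ± 0.230 in Hdac3 +/- cells (adjusted p = 9.13e-05), against 0.71 ± 0.230 in Hdac3 -/- cells (adjusted p = 0.0778).

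Tnfrsf8 (CD30, the receptor of Tnfsf8) was not called, with LPS differences of 0.36 and 0.35 (adjusted p = 0.0504 and 0.114). Tnfrsf9 (4-1BB, the receptor of Tnfsf9) read 4.66, 4.79 and 4.73 in untreated Hdac3 +/- cells and 5.56, 7.05 and 7.00 after LPS, a rise of 1.81 ± 0.295 (adjusted p = 0.000522). For Hdac3 -/- cells the values were 5.01, 4.86 and 4.84 untreated and 5.17, 5.55 and 5.25 after LPS, a difference of 0.42 ± 0.295 (adjusted p = 0.502). Tnfrsf10b, the mouse death receptor of TRAIL, was not called in any comparison, with LPS differences of 0.03 and 0.28 and a genotype difference after LPS of 0.31 ± 0.300 (adjusted p = 0.547). Further receptors that can bind TRAIL, Tnfrsf22, Tnfrsf23 and Tnfrsf11b (osteoprotegerin), were not called either, and the LPS differences in Hdac3 +/- cells were -0.58 (adjusted p = 0.0549), -0.47 and 0.12 (adjusted p = 0.145 and 0.494). Tnfrsf4 (OX40), Tnfrsf14 (HVEM), Tnfrsf25 (death receptor 3), Tnfrsf13b and Tnfrsf17 were not called in any comparison either, and Tnfrsf13c, the BAFF receptor, rose by 0.54 ± 0.136 in Hdac3 +/- cells (adjusted p = 0.00982).

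**Figure D3:**
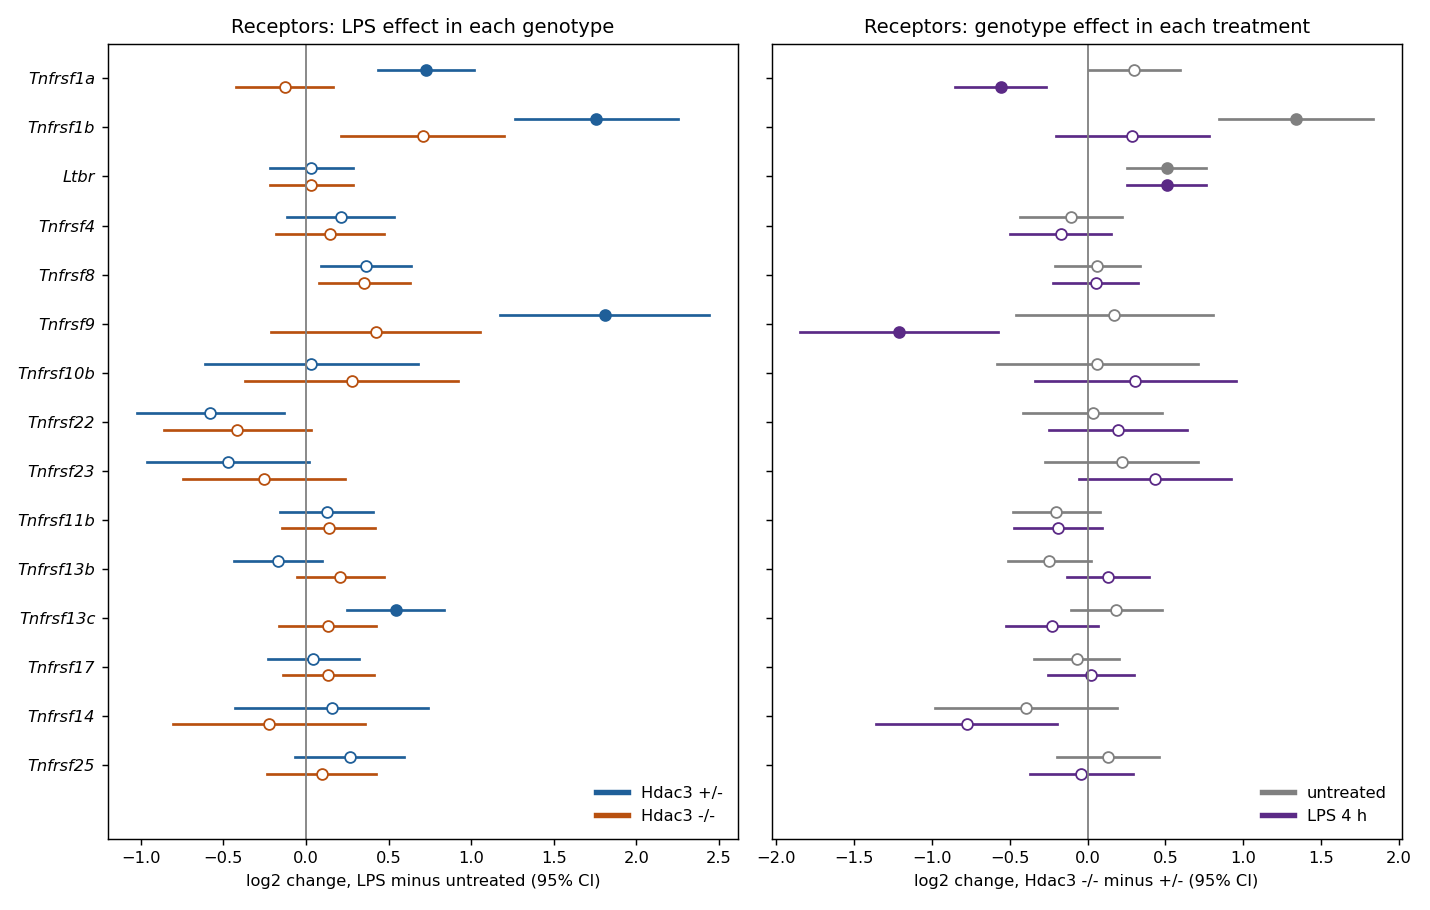
Log2 changes of the receptors that bind the 10 ligands, with 95% confidence intervals, LPS minus untreated on the left and Hdac3 -/- minus Hdac3 +/- on the right. Filled points passed an adjusted p of 0.05 and open points did not. Tnfrsf1b and Tnfrsf9 have the largest LPS changes drawn in Hdac3 +/- cells (1.76 and 1.81), and the intervals of Tnfrsf10b include 0 in all 4 comparisons.

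Below the receptors, 27 of 30 listed signalling genes had a usable row, and Ripk1, Traf3 and Chuk were not analysed here. After LPS 12 rose and 5 fell in Hdac3 +/- cells (median 0.37), and 10 rose and none fell in Hdac3 -/- cells (median 0.19), beside the shares of all genes given above (9.59% and 15.5%, then 3.69% and 5.18%). Of the 17 calls in Hdac3 +/- cells 7 were lost in some alternative, those of Traf4 (19 of 25), Birc3 (12), Tab2 (11), Tab1 (9), Sharpin (8), Birc2 (6) and Casp8 (6), and of the 10 in Hdac3 -/- cells 2 were, those of Birc3 (11) and Ikbkg (3). Tnfaip3 (A20, a ubiquitin-editing inhibitor of NF-kB signalling) rose by 3.47 ± 0.201 and 2.17 ± 0.201, Traf1 by 3.08 ± 0.327 in both, Cflar (a caspase-8 regulator) by 2.21 and 1.58, and Mlkl (the effector of necroptosis) by 1.93 and 0.89. Tnip1, an A20 partner, rose by 1.70 and 1.88, and Traf5 rose by 1.69 ± 0.212 in Hdac3 -/- cells (adjusted p = 0.000158), against 0.37 ± 0.212 in Hdac3 +/- cells (adjusted p = 0.214). Neither the Traf5 interaction (1.32, adjusted p = 0.0538) nor that of Mlkl (-1.04, adjusted p = 0.0507) was called. Of the 27 interactions 1 was called, as a smaller change in Hdac3 -/- cells (0.777% of all genes). An unadjusted p under 0.05 was reached by 10 of the 27, and by 11.4% of all genes.

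In untreated cells 1 of the 27 signalling genes was called, Tnfaip3, which was higher in Hdac3 -/- cells by 1.33 ± 0.201 (adjusted p = 0.00198). It read 7.60, 7.33 and 7.81 in untreated Hdac3 +/- and 9.28, 8.62 and 8.84 in untreated Hdac3 -/- cells, and 10.88, 10.88 and 11.38 against 11.11, 11.28 and 10.87 after LPS. The genotypes were apart before LPS and overlapped after it. Its interaction of -1.29 ± 0.284 was called at an adjusted p of 0.0476, and it failed to pass under 17 of 24 alternatives (adjusted p up to 0.135), among them without any single array other than Hdac3 +/- LPS replicate 1 or Hdac3 -/- untreated replicate 2. After LPS 6 signalling genes were higher and 5 lower in Hdac3 -/- cells (9.69% and 5.99% of all genes), of which 4 were lost in some alternative, and the largest differences were those of Mlkl (-1.33), Traf5 (1.23), Rnf31, a subunit of the linear ubiquitin ligase (-1.11), and Casp8 (-1.03).

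All 19 genes listed for control of Tnf mRNA and for shedding of the protein were measured. After LPS 6 rose and 4 fell in Hdac3 +/- cells (9.59% and 15.5% of all genes), and 5 rose and 3 fell in Hdac3 -/- cells (3.69% and 5.18% of all genes). Zfp36 (tristetraprolin, which destabilizes Tnf mRNA) rose by 2.11 ± 0.177 and 1.90 ± 0.177, and the RNase gene Zc3h12a by 1.71 ± 0.179 and 1.65 ± 0.179. Rhbdf2, which encodes the partner that brings the sheddase ADAM17 to the surface, rose by 2.02 ± 0.161 and 1.39 ± 0.161. The paralogs Zfp36l1 and Zfp36l2 fell by 1.69 and 2.79 in Hdac3 +/- cells, and by 2.11 and 1.45 in Hdac3 -/- cells. The Zfp36l2 call in Hdac3 -/- cells (adjusted p = 0.0223) was lost without any 1 of the untreated Hdac3 -/- arrays or without LPS replicate 2 (adjusted p up to 0.104).

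Between genotypes after LPS, 4 of the 19 were higher and 2 lower in Hdac3 -/- cells (9.69% and 5.99% of all genes). Zfp36l2 was higher by 1.90 ± 0.363 (adjusted p = 0.00306), at 9.78, 8.64 and 9.84 against 6.81, 8.45 and 7.29. Mapkapk2, a kinase that relieves the block on Tnf translation, was higher by 1.02 ± 0.193 (adjusted p = 0.0029), at 12.17, 12.31 and 12.23 against 11.20, 11.21 and 11.25. Neither gene's groups overlapped there. Rhbdf2 was lower by 0.63 ± 0.161 (adjusted p = 0.0175), a call lost without LPS replicate 3 of either genotype (adjusted p up to 0.0852), and Sppl2a, an intramembrane protease that cuts the Tnf stalk, was lower by 0.54 ± 0.110 (adjusted p = 0.00466). In untreated cells Mapkapk2 (0.80), Litaf (0.68) and Sppl2a (-0.55) were called, at adjusted p of 0.0413, 0.0298 and 0.0147. These 3 calls were lost in 16, 11 and 5 of 24 alternatives, each of them without untreated replicate 1 of either genotype. No interaction passed, 3 of 19 had an unadjusted p under 0.05 (11.4% of all genes), and the smallest p was that of Rhbdf2, at -0.63 ± 0.228 (adjusted p = 0.258). Adam17 itself was not called in any comparison.

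Several ligand genes lie beside each other, and the nearest measured genes on either side were read as well, in RefSeq order. On chromosome 4 the order is Tex48, Tnfsf15, Tnfsf8 and Tnc. Tnc, which encodes the matrix protein tenascin C, read 4.13, 3.63 and 3.78 in untreated Hdac3 +/- cells and 8.73, 8.25 and 8.53 after LPS. The Hdac3 -/- arrays gave 3.85, 3.96 and 3.88 untreated and 4.26, 4.34 and 3.98 after LPS. The LPS-treated Hdac3 +/- arrays stood far above the other 9 arrays, which differed little among themselves. Tnc rose by 4.66 ± 0.164 in Hdac3 +/- cells (adjusted p = 2.68e-09), against 0.29 ± 0.164 in Hdac3 -/- cells (adjusted p = 0.365). The interaction was -4.36 ± 0.232 (adjusted p = 8.63e-07). Untreated signals of both genotypes lay near the lower quartile of all probe sets on their arrays (3.70 to 3.84 and 3.72 to 3.80). The rise in Hdac3 +/- cells is therefore best read as a lower bound, and the size of the interaction as uncertain.

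Tnfsf8 and Tnc had a genotype difference in the LPS response, and Tnfsf15, on the other side of Tnfsf8, had none that was called. Tex48 was not called in any comparison, with LPS differences of 0.06 and 0.13. The Tnf cluster, in the order Lst1, Ltb, Tnf, Lta and Nfkbil1, held 2 called genes after LPS (Tnf and Lta), whereas Lst1 and Nfkbil1 differed by -0.08 and 0.32 in Hdac3 +/- cells (adjusted p = 0.793 and 0.149). Of the 13 flanking genes Tnc and Myo16, beside Tnfsf13b, rose in Hdac3 +/- cells (Myo16 by 0.46, adjusted p = 0.0488, lost in 16 of 24 alternatives, up to 0.253). Nceh1, beside Tnfsf10, fell in both genotypes, by 1.29 ± 0.224 and 1.35 ± 0.224 (adjusted p = 0.000867 and 0.00156), while Tnfsf10 rose. Ghsr on its other side was not called. Cd70, between Tnfsf9 and Tnfsf14, was not called in any comparison.

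**Figure D4:**
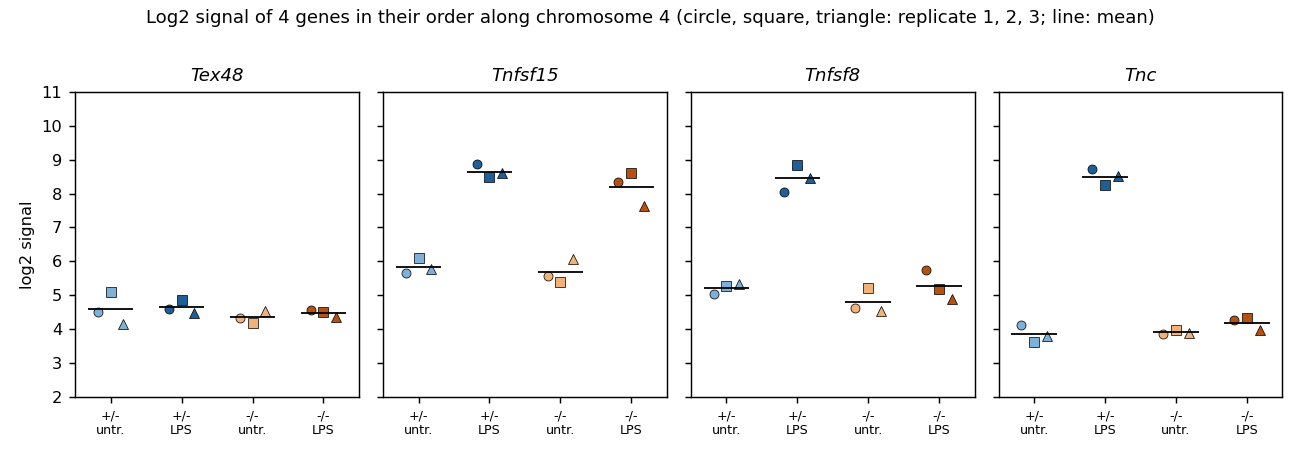
Log2 signal on each array of 4 genes in their order along chromosome 4, with distances not drawn. Columns are the 4 groups, symbols are replicates 1, 2 and 3, and lines are group means. Tnfsf8 and Tnc were high in the LPS-treated Hdac3 +/- arrays alone (8.05 to 8.85 and 8.25 to 8.73), Tnfsf15 was high after LPS in both genotypes, and Tex48 was between 4.15 and 5.10 on all arrays.

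For each ligand gene called with at least a 2-fold LPS change, the genes with the most similar pattern over the 12 arrays were found by the root-mean-square difference of the log2 values after each gene's mean was taken off. This likeness is a description over arrays that share their groups, and close changes of the genes picked follow from how they were picked. Nearest to Tnfsf10 were Iigp1, an immunity-related GTPase (0.33), Ifit3b (0.37) and Slfn4 (0.65). Iigp1 changed by 4.23 and 1.51 after LPS in Hdac3 +/- and Hdac3 -/- cells, and Ifit3b by 4.28 and 1.48, beside 4.74 and 1.62 for Tnfsf10. Slfn4, the least alike of the 3, changed by 4.29 and 2.85. Nearest to Tnfsf8 were Slc28a2b (0.32), Il15ra, the IL-15 receptor alpha chain (0.36), and Mxd1 (0.40). Il15ra differed between genotypes by -3.14 after LPS and Mxd1 by -3.00, beside -3.19 for Tnfsf8.

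For the other ligands the nearest genes were Pdpn (0.43), Dusp4, a MAP kinase phosphatase (0.46), and Gpr84 (0.48) for Tnf, Slc30a1 (0.17), Acvr1b (0.18) and Antxr1 (0.19) for Lta, and Rab11fip1 (0.31), Peli1 (0.32) and Spata13 (0.33) for Tnfsf15. Dusp4 rose by 1.76 and 1.73 after LPS and Peli1, a ubiquitin ligase, by 2.71 and 2.19. Tnfsf4 was nearest to Csf3, which encodes the granulocyte growth factor (0.49), Plet1 (0.53) and Slamf8 (0.55), and Tnfsf9 to the long noncoding RNA Morrbid (0.34), Niban2 (0.38) and Plek (0.41). Morrbid was higher in untreated Hdac3 -/- cells by 1.17 (adjusted p = 0.00123), the same size of difference as that of Tnfsf9 (1.17), which was not called.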

How the data were processed

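RNA of 12 macrophage cultures was labelled from total RNA and hybridised to Affymetrix whole-transcript gene arrays, per the labels' protocols. The authors deposited a log2 signal for each probe set, summarised by RMA with affy according to the submitters' processing notes; versions, chip description and genome build are not stated there. RMA normalizes across arrays, and precision is limited by having 3 arrays a group.

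Of 28193 probe sets, 21648 had 1 gene symbol, 1313 several and 5232 none in the platform's annotation table. The last 2 kinds were left out. Of those with 1 symbol 21553 matched a RefSeq gene of GRCm38.p6 by Entrez identifier, which was used for names and gene order only. The probe set with the highest mean was kept for 954 genes with more than 1, which gave 19945 genes.

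A model with 4 group means was fitted with limma 3.58.1 in R 4.3.3, with eBayes without trend, tested on simulated data, with Benjamini-Hochberg adjustment across all genes for each of 5 contrasts. Figures used Python 3.11.15 and matplotlib 3.10.9. Named were Hdac3, the 10 ligands, up to 4 called genes with the largest change per list and contrast (or the smallest p where none was called), the flanking measured genes, and the 3 nearest patterns. The members and the lists were chosen with earlier results of these data known.

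Deviations from group means correlated at 0.223 to 0.327 between the untreated and LPS-treated Hdac3 +/- arrays of the same number. For Hdac3 -/- arrays of the same number the range was -0.12 to 0.20. Arrays of different number and group gave -0.44 to 0.51 over both genotypes. Within Hdac3 +/- cells alone, different numbers gave -0.30 to 0.11, below every pair of the same number. Both male arrays were also replicate 1 there. The numbers may therefore pair the Hdac3 +/- arrays, which the labels do not state. Within Hdac3 -/- cells different numbers gave -0.32 to 0.29, which leaves pairing unsettled there. The main model took no numbers as pairs. Alternatives covered the normalization, weights, dim genes, the probe set rule, replicate blocks, sex and each array left out.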

Additional observations from a re-analysis of the deposited data

Results flagged for a closer look

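Both results here had an LPS effect that differed between the genotypes by the test of the difference itself. Tnfsf10 rose by 4.74 in Hdac3 +/- and by 1.62 in Hdac3 -/- cells, with an interaction of -3.12 (adjusted p = 0.000777 in limma), and the untreated Hdac3 -/- signals behind the second rise were near the lower quartile of all probe sets, so that rise is best read as a lower bound and the size of the interaction as uncertain. Tnfsf8 rose by 3.24 in Hdac3 +/- cells against 0.48 in Hdac3 -/- cells, with an interaction of -2.76 (adjusted p = 0.00138 in limma). All 3 Hdac3 -/- arrays lay below all 3 Hdac3 +/- arrays after LPS for both genes. Groups of 3 arrays are too small for a test of single outlying arrays.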

How the results depend on the processing

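Over the 10 ligands and 5 comparisons, 1193 of 1215 values under 25 alternatives stayed on their side of the threshold, 4 lost the call, 18 gained one and none of the called values changed sign, while 21 uncalled values did. The 4 losses were those of Lta in Hdac3 +/- cells. Array weights added Tnfsf8 in Hdac3 -/- cells (0.76, adjusted p = 0.0123) and, between genotypes after LPS, Tnf and Lta (adjusted p = 0.0411 and 0.0477), which made 4 ligands called there. The replicate block within genotype gave 5478 genes for LPS in Hdac3 +/- cells, 2264 in Hdac3 -/- cells and 312 for the interaction, against 4997, 1769 and 216 without it, and changed 1 ligand call, Tnfsf4 in Hdac3 -/- cells (adjusted p = 0.0115). Among untreated cells 1 ligand was called, 2 with sex as a covariate, 3 without both male arrays (an alternative added after seeing the data) and 1 to 3 with 1 array left out. Array weights gave 4424 genes for LPS in Hdac3 -/- cells, 1186 against 531 for untreated genotypes and 592 for the interaction, and the 6 untreated arrays alone gave 321. With 1 array left out the counts ran from 1129 to 1941 for LPS in Hdac3 -/- cells, 266 to 606 for untreated genotypes, 1685 to 3495 against 3127 for genotypes after LPS, and 97 to 349 for the interaction. Groups held 3 arrays, and 95% intervals are printed for only some of the uncalled ligand changes. The plot of ligand changes draws them for the LPS and genotype comparisons.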
